A study of Mus musculus with 12 samples.

Results

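A set of 10 genes through which the gut epithelium addresses the immune system was followed in colonic epithelial cells of mice with and without epithelial Tfeb. They encode the IgA transporter Pigr, the cytokines Il18, Il33, Tslp and Il15, and the chemokines Ccl20, Ccl25, Ccl28, Cxcl16 and Cx3cl1. They were chosen by gene symbol for their function, 10 of the 47632 genes in each deposited table, and all 10 symbols were found. Of these, 9 had a value above 0 in at least 1 of the 6 groups, and Tslp was listed at 0 in all 6.

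RNA was sequenced from epithelial cells of the colon of C57/BL6 mice, in 6 groups of 2 animals, 12 animals in all. Tfeb flox/flox animals, labelled WT and called controls here, carry the floxed Tfeb allele without Cre, and Tfeb ΔIEC animals, labelled KO, are homozygous for the same allele and carry Cre under the villin promoter, which is active in epithelium of both small intestine and colon. Each genotype was sampled on Day 0, the basal state before treatment, and on Day 4 and Day 11 of an experiment in which dextran sulfate sodium (DSS), a chemical that injures the colonic epithelium, was given in the drinking water. According to the methods, Day 4 fell within DSS administration and Day 11 at the end of recovery on plain water. The labels give 2.5% DSS for all samples, where the methods give a slightly lower concentration, and ages of 10 and 12 weeks on Day 0, 12 weeks on Day 4 and 10 weeks on Day 11, so age and day cannot be told apart between Day 4 and Day 11.

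Dimeric IgA from plasma cells below the epithelium is bound by the polymeric immunoglobulin receptor, carried through the epithelial cell and released into the lumen with part of the receptor attached. Epithelial chemokines such as CCL28 and CCL25 attract lymphocytes and IgA plasma cells to the mucosa, CCL20 attracts cells with CCR6, and the membrane-bound chemokines CXCL16 and CX3CL1 hold or attract leukocytes and are shed by metalloproteases. IL-18, IL-33 and TSLP are alarm signals of injured or colonized epithelium, and IL-15 maintains the lymphocytes that lie between epithelial cells.

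Each table gave 1 FPKM value (fragments counted per kilobase of transcript and corrected for library depth) per gene and genotype, which Cuffdiff made from both animals of a group. The values are therefore the authors' pooled values, without an SD, and no difference given here has a replicate check or a test. The tables also hold the results of the authors' own Cuffdiff test between genotypes, which are not used here. A gene was compared on a day when either genotype had at least 1 FPKM, and was counted as higher or lower when log2(FPKM + 1) differed by at least 1, that is 2-fold, which understates changes of genes with low values. The genotypes of a day were scaled together, whereas days were normalized separately. In bulk RNA, fewer cells of a type and less RNA per cell cannot be told apart.

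Tfeb itself was checked first. Its FPKM in controls was 0.901 on Day 0 and 1.08 and 1.18 on Days 4 and 11. In Tfeb ΔIEC cells it was 0.185 on Day 0 and listed at 0 on Days 4 and 11, which is the direction of the labels on every day. These values are low, on Day 0 below the 1 FPKM required for a comparison, and the fragments behind them were not estimated. The tables of Day 4 and Day 11 were close to each other in all genes: 43 of 7629 genes (0.564%) in controls and 25 of 8038 (0.311%) in Tfeb ΔIEC differed 2-fold between these days, against 43.2% and 24.9% between Day 0 and Day 4. Among genes above 0 on both days, 14.3% in controls and 10.2% in Tfeb ΔIEC had exactly the same value in both tables. The labels name separate animals for these days, and whether the tables share libraries was not tested. Day 11 is therefore given beside Day 4 and not counted as a second observation of the same difference.

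The number of fragments behind a value is not in the tables. Among genes with 1 annotated transcript of 1800 to 2200 nt, however, FPKM times length fell into steps at its low end, with 1 or 2 steps per group, and between 54 of 78 and 67 of 69 genes at or below the higher step lay within 8% of a step. Each step was read as 1 fragment, and the fragments behind each value were estimated from the steps at the length of the gene. These estimates, chosen after the data were seen, cover both animals together and set how firmly each gene can be described: Pigr rests on many fragments, Il18 and Ccl28 on far fewer, Cxcl16, Il15, Il33, Ccl20 and Ccl25 on a handful in at least 1 genotype, and Cx3cl1 possibly on a handful too, by its lower estimates.

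The genotypes differed by size in few of the 10 genes. On Day 0, 5 were compared, 2 were higher in Tfeb ΔIEC (Ccl28 and Cx3cl1) and 0 were lower, where 13.5% of the 9993 genes compared were higher and 16.1% were lower. On Day 4, of 6 compared, Pigr was higher and Cxcl16 was lower, while 25.6% of 9371 genes were higher and 26.1% were lower. On Day 11 the same pair was counted, with 26.1% of 9365 genes higher and 25.7% lower. The counts of Days 4 and 11 are thus not above the share of all genes, and every difference of a compared member lay between the 10th and the 90th percentile of all genes of its day. The median difference of the compared members was 0.80 on Day 0, against 0.06 over all genes, and -0.08 on Day 4 and -0.11 on Day 11, against 0.06 and 0.08.

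**Figure D1:**
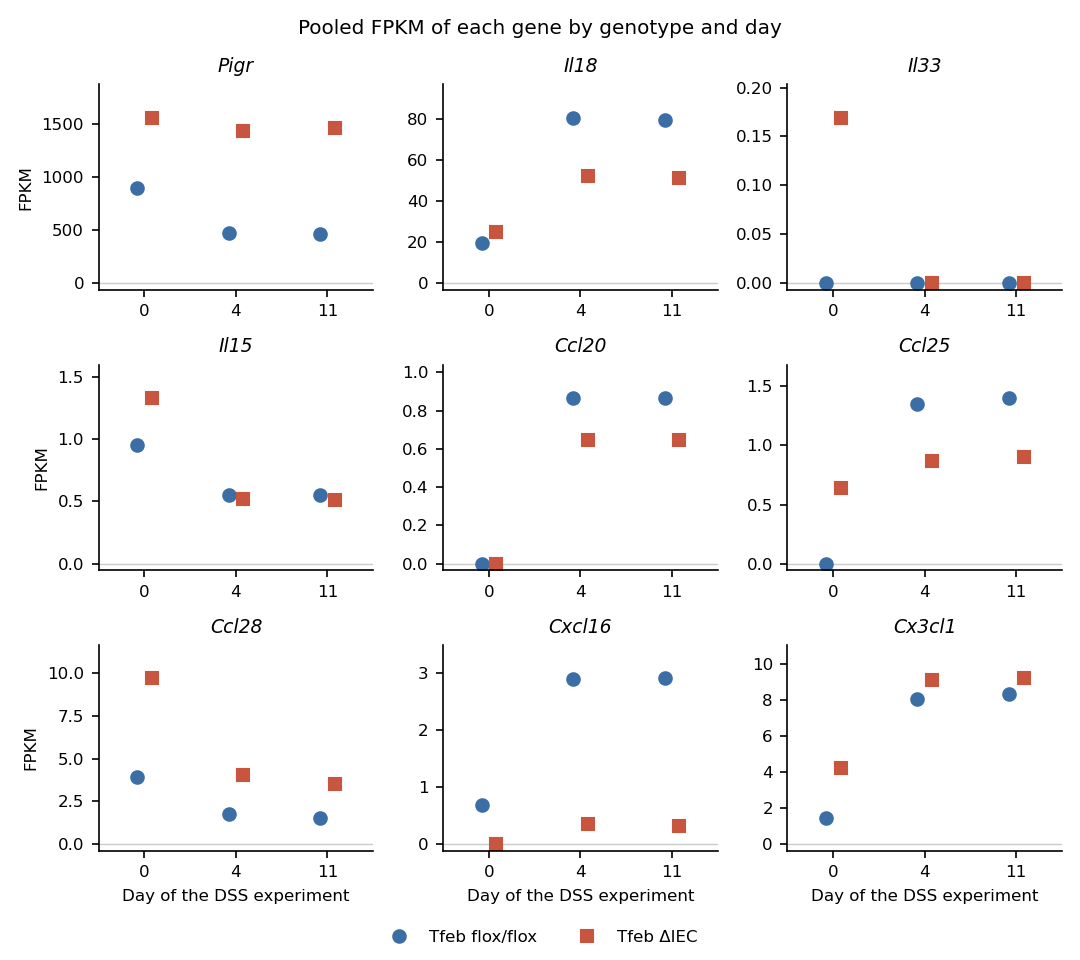
Pooled FPKM (vertical axes, linear, each with its own scale) of the 9 genes with a value above 0, by day (horizontal axes), in Tfeb flox/flox (blue circles) and Tfeb ΔIEC (red squares). Each point is 1 value made from 2 animals and has no error bar. Pigr, Ccl28 and Cx3cl1 were higher in Tfeb ΔIEC in all 3 tables, Cx3cl1 only slightly on Days 4 and 11. Cxcl16 was below on all 3, and the values of Days 4 and 11 nearly coincide.

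Pigr (ENSMUSG00000026417.13, chr1:130826684-130852249 of mm10, plus strand, 1 transcript of 3849 nt) had by far the highest level of the 10 genes in every group. In controls its FPKM was 893, 475 and 461 on Days 0, 4 and 11. In Tfeb ΔIEC cells it was 1558, 1434 and 1459. Tfeb ΔIEC was thus the higher genotype in all 3 tables, by 1.74-fold, 3.02-fold and 3.16-fold. In tables normalized separately, the larger ratio under DSS came with a lower value in the controls and not with a higher value without Tfeb. On the log2(FPKM + 1) scale the differences were 0.80, 1.59 and 1.66. The estimated number of fragments was 3073 to 3630 in controls and 15289 to 19622 in Tfeb ΔIEC on Day 4. The values thus rest on many fragments, although these come from amplified libraries and the spread between animals is not known. Among the genes above 0, Pigr ranked 142nd in controls and 50th in Tfeb ΔIEC on Day 0, and 330th and 61st on Day 4. Its Day 4 difference was above that of 87.6% of the genes compared. With the running median over transcript length taken off, the Day 4 difference of Pigr was 0.91, short of 2-fold.

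The promoter of Pigr is shown because TFEB binds the CLEAR element of lysosomal gene promoters, which contains the letters TCACGTGA. The 250 bases before its RefSeq start at chr1:130826684, at chr1:130826434-130826683 of GRCm38.p6 on the plus strand, hold these 8 letters at positions -72 to -65 from the start, chr1:130826612-130826619, printed in capitals. The core CACGTG lies inside the same match.
Pigr: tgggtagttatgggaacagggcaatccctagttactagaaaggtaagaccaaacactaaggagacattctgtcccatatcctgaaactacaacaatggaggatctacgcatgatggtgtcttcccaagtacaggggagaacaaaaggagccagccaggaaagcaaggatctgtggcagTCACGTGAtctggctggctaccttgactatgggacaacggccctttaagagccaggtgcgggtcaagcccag

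In the RefSeq promoter table, whose windows run from 250 bases before to 50 after a start, TCACGTGA was found on either strand in 320 of 32851 promoters (0.974%) and CACGTG in 2349 (7.15%). Of the 10 genes, 7 had a promoter in the table, with 9 windows in all, since Il33 and Ccl25 have a pair each, and Pigr was the only one of the 7 with either motif. Il15, Tslp and Cxcl16 had no entry. The match describes the sequence and not whether TFEB was bound there.

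The immunoglobulin that Pigr carries is made by plasma cells, and its transcripts were present in these samples. Igha, the constant region of the IgA heavy chain, had an FPKM of 21.02 in controls and 12.6 in Tfeb ΔIEC on Day 0, 23.7 and 19.7 on Day 4, and 24.9 and 19.98 on Day 11. The joining chain Jchain, which links IgA dimers, was at 1.78 and 1.02 on Day 0, and on Day 4 was listed at 0 in controls and had 0.523 in Tfeb ΔIEC. Neither differed 2-fold in a compared pair of values, and in both the Day 0 value was lower in Tfeb ΔIEC, the opposite direction to Pigr.

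Il18 (ENSMUSG00000039217.12, chr9:50554827-50581840, plus strand, transcripts of 702 to 885 nt) was the only cytokine of the 10 with a level above 10 FPKM. Its FPKM in the controls was 19.4, 80.9 and 79.5 on Days 0, 4 and 11. In Tfeb ΔIEC it was 24.99, 52.5 and 51.4. The level was thus higher without Tfeb before treatment and lower under DSS as deposited, where the control value was 1.54-fold that of Tfeb ΔIEC on Day 4. The log2 differences between genotypes were 0.35 on Day 0 and -0.61 on Day 4 and -0.62 on Day 11, none of them 2-fold. Genes of this length had a median difference of -1.01 on Day 4, and the Day 4 difference of Il18 turned positive, to 0.45, when the running median over length was taken off, and to 0.21 when each group was divided by its FPKM sum, so no direction is given for it. The Day 0 difference rose to 0.92 with the running median taken off and stayed short of 2-fold. Estimated fragments were 74.4 to 111 in controls and 67.4 to 129 in Tfeb ΔIEC on Day 4.

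Il33, the nuclear alarmin read by ST2, and Tslp, which acts on dendritic cells and type 2 lymphocytes, were not measurable here. Il33 (ENSMUSG00000024810.16, chr19:29925114-29960718) had 0.169 FPKM in Tfeb ΔIEC on Day 0, an estimated 1.01 fragments, and was listed at 0 in the other 5 groups. Tslp (ENSMUSG00000024379.3) was listed at 0 in every group. A single fragment was worth up to 0.244 FPKM for Il33 and up to 0.624 for Tslp, which limits what a listing at 0 can show.

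Il15 (ENSMUSG00000031712.8, chr8:82331632-82403222, minus strand) lay between 0.513 and 1.33 FPKM. The values were 0.949 in controls and 1.33 in Tfeb ΔIEC on Day 0, and 0.554 and 0.516 on Day 4. On Day 11 they were 0.554, identical to the Day 4 value, and 0.513. They rest on an estimated 0.957 to 5.71 fragments, so a difference between genotypes or days was not detectable at this depth.

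Among the chemokines, the pair of membrane-bound ligands and Ccl28 carried most of the differences by size. Ccl28 (ENSMUSG00000074715.2, chr13:119623819-119654359, plus strand, 1 transcript of 3740 nt), which attracts IgA plasma cells through CCR10, had an FPKM of 3.95 in controls and 9.69 in Tfeb ΔIEC on Day 0. On Day 4 the values were 1.75 and 4.02, and on Day 11 they were 1.52 and 3.49. Like Pigr, Ccl28 was higher in Tfeb ΔIEC in all 3 tables, by ratios of 2.45, 2.29 and 2.30, and its Day 0 value was 2.25-fold that of Day 4 in controls and 2.41-fold in Tfeb ΔIEC, in tables normalized separately. On the log2(FPKM + 1) scale the differences were 1.11, 0.87 and 0.83, so only Day 0 passed 2-fold on that scale. That count was lost with the running median over length taken off (0.73, or 0.85 by the longest transcript) and with a pseudocount of 5 FPKM (0.72). Estimated fragments were 34.6 and 88.6 on Day 0, and 11.03 to 13.03 and 41.7 to 53.5 on Day 4.

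The promoter of Ccl28 is printed for comparison with that of Pigr, since both genes were higher in Tfeb ΔIEC throughout. As deposited, Cx3cl1 was also the higher in Tfeb ΔIEC on each day, but by only 1.13-fold on Day 4 and 1.10-fold on Day 11. None of the motifs searched, those above and the NF-kB, TATA box and interferon motifs described next, was found in the window of Ccl28. Its 250 bases before the start lie at chr13:119623569-119623818 on the plus strand. The promoter of Ccl20 is printed because it holds the only match to the NF-kB motif among the 9 windows, in capitals, at positions -80 to -71 from the start and reading on the minus strand (window chr1:83116516-83116765, plus strand). That motif was found in 4.51% of all promoters of the table.
Ccl28: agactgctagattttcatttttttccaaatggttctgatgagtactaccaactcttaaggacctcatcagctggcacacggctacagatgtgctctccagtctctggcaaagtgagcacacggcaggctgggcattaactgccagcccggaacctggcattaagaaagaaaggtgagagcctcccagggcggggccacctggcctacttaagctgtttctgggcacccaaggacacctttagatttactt
Ccl20: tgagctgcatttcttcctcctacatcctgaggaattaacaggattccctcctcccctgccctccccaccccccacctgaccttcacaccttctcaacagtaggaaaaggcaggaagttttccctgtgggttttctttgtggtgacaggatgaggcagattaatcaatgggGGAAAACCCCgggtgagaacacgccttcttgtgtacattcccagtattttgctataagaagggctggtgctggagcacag

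TATAAA, the core of the TATA box, was found in 5 of the 9 windows, in 4 of the 7 genes (Il18, Il33, Ccl25 and Cx3cl1), against 13.6% of all promoters. GAAANNGAA, the core of an interferon-stimulated element, was found in 0 of 9, against 8.56%. Matches were counted at any position in a window. TATAAA lay at -203 to -198 and -29 to -24 in the windows of Il33, -16 to -11 in Ccl25 and -6 to -1 in Cx3cl1. The matches thus had no common distance from the start, and whether any acts as a TATA box was not tested. In Il18 the match reads on the minus strand, at -175 to -170 from the start, and the GENCODE locus of Il18 begins downstream of this RefSeq start. No match in a window says only that these letters are not there.

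Ccl20 (ENSMUSG00000026166.14, chr1:83116766-83119167) was listed at 0 in both genotypes on Day 0. On Day 4 it had 0.866 FPKM in controls and 0.648 in Tfeb ΔIEC, and both values were identical on Day 11. They stand for an estimated 0.876 to 2.88 fragments. Ccl25 (ENSMUSG00000023235.14, chr8:4325210-4360020), a chemokine best known from the small intestine, was listed at 0 in controls and at 0.637 in Tfeb ΔIEC on Day 0. Its Day 4 values were 1.35 and 0.871, an estimated 1.46 to 2.66 fragments, and its Day 11 values were 1.40 and 0.901. Differences between genotypes were not detectable at this depth for either gene, and 3.60% of the exonic bases of Ccl25 overlap Elavl1 on the opposite strand.

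Cxcl16 (ENSMUSG00000018920.11, chr11:70453983-70459984, minus strand, 1 transcript of 2699 nt), the ligand of CXCR6, was the only member that was lower without Tfeb by 2-fold. Its FPKM in the controls was 0.680, 2.89 and 2.90 on Days 0, 4 and 11. In Tfeb ΔIEC it was listed at 0 on Day 0 and had 0.344 and 0.308. The control value was thus 8.39-fold that of Tfeb ΔIEC on Day 4 and 9.41-fold on Day 11, with log2(FPKM + 1) differences of -1.53 and -1.58. The fragments behind this are few, an estimated 12.6 to 15.5 in controls and 2.47 to 3.303 in Tfeb ΔIEC on Day 4. With a pseudocount of 5 FPKM the log2 difference of Cxcl16 was -0.56 on Day 4 and -0.57 on Day 11, short of 2-fold. Its exons share 552 nt (20.5% of its length) with Zmynd15 on the opposite strand, which was listed at 0 in all 6 groups.

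Cx3cl1 (ENSMUSG00000031778.12, chr8:94772009-94782427, plus strand, transcripts of 377 to 3315 nt), the ligand of CX3CR1 on macrophages, had an FPKM of 1.46 in controls and 4.22 in Tfeb ΔIEC on Day 0. On Day 4 the values were 8.05 and 9.13, and on Day 11 they were 8.37 and 9.21. The genotypes thus stood 2.90-fold apart before treatment and 1.13-fold apart on Day 4, with log2 differences of 1.09 and 0.16. Its short and long transcripts leave the estimate wide, 0.436 to 10.9 fragments in controls and 1.27 to 35.7 in Tfeb ΔIEC on Day 0, so the difference of Day 0 may rest on very few fragments. On Day 4 the estimates were 2.41 to 53.0 and 4.15 to 108. With the running median over length taken off, the Day 4 difference became 1.76, past 2-fold, at its median transcript length, and -0.39 at its longest, so no direction is given for it. The Day 0 difference ranged from 0.51 with a pseudocount of 5 FPKM, short of 2-fold, to 2.24 with the running median taken off at the median transcript length, and was 0.89 at the longest.

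**Figure D2:**
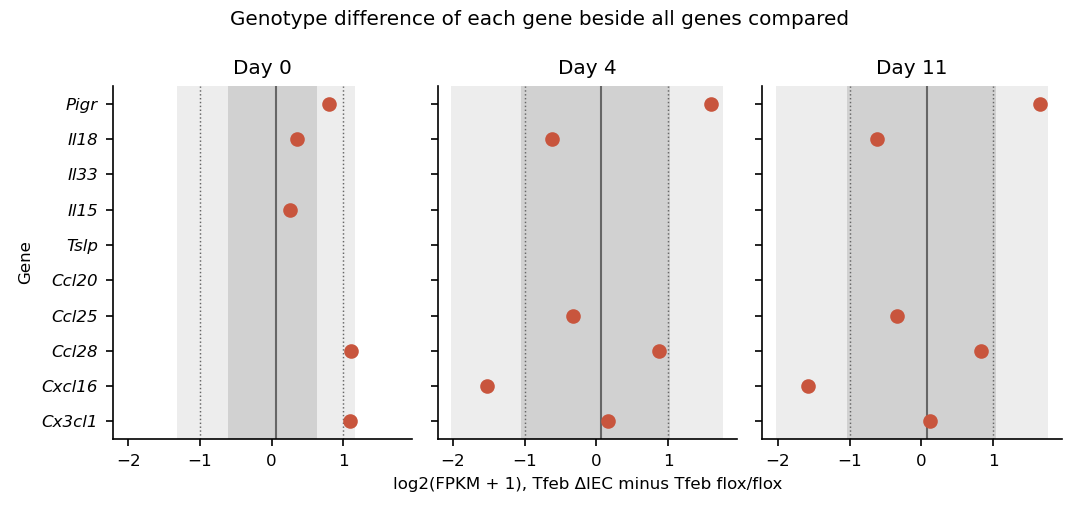
Difference in log2(FPKM + 1), Tfeb ΔIEC minus Tfeb flox/flox (horizontal axes), of each gene compared (rows) on Days 0, 4 and 11. Dark and light grey bands hold the middle 50% and 80% of all genes compared, the solid line is their median and dotted lines mark 2-fold. All points lie inside the light band, with Pigr at 1.59 and Cxcl16 at -1.53 outside the dark band on Day 4.

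Transcript length moved with the difference between genotypes in all genes, and it bears on the values above. On Day 4 the median log2 difference was -2.12 for the shortest 464 genes (median length 340 nt) and 0.73 for genes around 2977 nt, and it was 0.14 for the longest (median 6972 nt). On Day 0 the same medians ran from -1.17, at 348 nt, to 0.48, at 5193 nt, with 0.32 for the longest, at 7280 nt. The medians of the short transcripts were thus lower in Tfeb ΔIEC and those of the long ones higher, though less so for the longest, and the part of this in each gene's difference was not tested. Among the 201 genes nearest to Pigr in length the Day 4 median was 0.68 and the upper quartile 1.47, below the 1.59 of Pigr. For Ccl28 the neighbours' median was 0.61 with an upper quartile of 1.29, so its 0.87 lay inside the middle of genes of its length. On Day 0 their places were exchanged: Pigr, at 0.80, lay inside, with an upper quartile of 0.90, and Ccl28, at 1.11, lay above its 0.84. Cxcl16 lay outside on the other side, at -1.53 where the lower quartile was -0.13 and the median 0.79. With the running median subtracted, Pigr fell just short of 2-fold on Day 4, at 0.91, and Cxcl16 reached -2.33, while Cx3cl1 passed 2-fold in place of Pigr, at 1.76. Division of each group by its FPKM sum moved the other way: it shifted the Day 4 median of all genes from 0.06 to 0.66 and the shares of higher and lower genes to 40.5% and 15.2%, and it left Pigr higher and Cxcl16 lower and added Ccl28, at 1.43, to the higher genes.

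**Figure D3:**
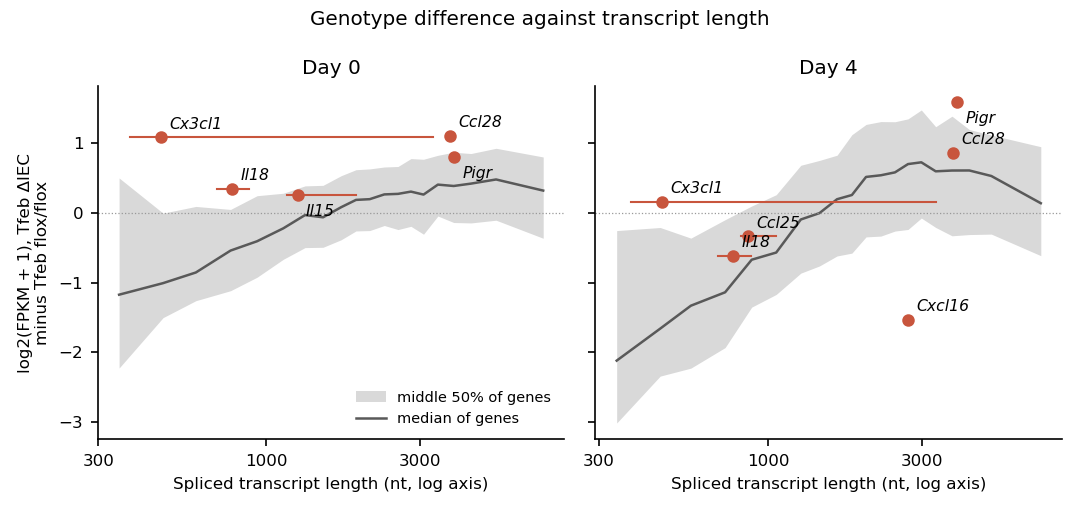
Difference in log2(FPKM + 1), Tfeb ΔIEC minus Tfeb flox/flox (vertical axes), against spliced transcript length on a log axis, on Days 0 and 4. The grey line and band are the median and middle 50% of genes in 20 bins of length, red points are the members at their median transcript length, and horizontal bars span their shortest to longest transcript. On Day 4, Pigr at 1.59 lies above the band and Cxcl16 at -1.53 below it.

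Day 0 and Day 4 were also compared within each genotype, in tables normalized separately. In controls, of 6 compared, Il18, Ccl25, Cxcl16 and Cx3cl1 were higher on Day 4 by at least 2-fold and 0 were lower, where 17.5% of 9617 genes were higher and 25.7% lower. Il18 was 4.16-fold, Cxcl16 4.25-fold and Cx3cl1 5.53-fold its Day 0 value, and Ccl25 was listed at 0 on Day 0 and rests on few fragments. Divided by the FPKM sum, 2 were higher and 2 lower: Ccl25 (0.94) and Cxcl16 (0.81) were no longer past 2-fold, and Pigr (-1.50) and Ccl28 (-1.20) were lower. As deposited, Pigr went the other way without reaching 2-fold, its Day 0 value being 1.88-fold that of Day 4, and Ccl28 likewise, 2.25-fold in FPKM and -0.85 on the log2(FPKM + 1) scale. In Tfeb ΔIEC, of 5 compared, Il18 was higher, 2.10-fold, and Ccl28 was lower, at -1.09, where 9.26% of genes were higher and 15.6% lower. Divided by the sum, Ccl28 was at -0.89 and Cx3cl1 at 1.18, so 2 were higher and 0 lower. As deposited, Cx3cl1 was 2.16-fold its Day 0 value there, which is 0.96 on the log2(FPKM + 1) scale. Pigr was almost level in Tfeb ΔIEC, with 1558 on Day 0 and 1434 on Day 4.

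The change of the genotype difference from Day 0 to Day 4 was 0.79 for Pigr, -0.96 for Il18, -0.93 for Cx3cl1 and -0.78 for Cxcl16 on the log2 scale. Over 8263 genes the median size of this change was 0.82, regardless of direction, so these members moved about as far as the typical gene. Ccl28 changed by -0.24, and 16.8% of these genes changed by less in either direction. These changes have no test, since each group has 1 value.

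The genes whose 6 values ran most like those of a member were taken from 5575 genes with at least 5 FPKM in any group, by the root mean square distance between centred log2(FPKM + 1) values. For Pigr these were Cpq (0.05), Aldh2 (0.05) and P2rx4 (0.06), and for Ccl28 they were Slc20a1 (0.03), Clns1a (0.06) and Gbf1 (0.09). Aldh2, the mitochondrial aldehyde dehydrogenase, for example had 187 and 293 FPKM on Day 0 and 93.4 and 292 on Day 4 in controls and Tfeb ΔIEC. For Il18 the nearest were Amdhd2 (0.12), Ms4a8a (0.16) and Tnfrsf12a (0.17), and for Cx3cl1 they were Cc2d1b (0.14), Slc30a9 (0.21) and Duoxa2 (0.22). Days 4 and 11 are nearly the same in these profiles, so the 6 values hold little more than 4, and a likeness over so few is a description.

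The receptors for these ligands, most of which are carried by leukocytes, were mostly listed at 0 or under 1 FPKM in the isolated epithelium, with Il15ra and Il2rg the exceptions. Of 15 receptor genes, 13 were listed at 0 in controls and 7 in Tfeb ΔIEC on Day 4, and 2 were compared, 1 higher and 1 lower, beside 25.6% and 26.1% over all genes. Il15ra, which presents IL-15 to lymphocytes, had 3.11 FPKM in controls and 1.05 in Tfeb ΔIEC and was lower, at -1.003. Il2rg, the common gamma chain of lymphocyte cytokine receptors, was listed at 0 and had 1.79, and was higher. Il18r1, Il18rap, Il1rl1, Il7r, Ccr3 and Ccr10 were listed at 0 in both genotypes on Days 0 and 4.

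A list of 13 genes covered the proteins that process IL-18 and IL-33 or shed the membrane-bound chemokines. On Day 4, 11 were compared, 5 were higher and 1 was lower, with a median difference of 0.98 against 0.06 over all genes, of which 25.6% were higher and 26.1% lower. The counts of this and the following lists use the deposited scaling, and division by the FPKM sum would raise the differences of Day 4. The trend with transcript length was not taken off in the lists either, and its part in their medians was not tested. Casp1, the protease that cleaves pro-IL-18, had 15.4 FPKM in controls and 75.4 in Tfeb ΔIEC. The inflammasome sensor Nlrp6 had 8.55 and 41.0. Adam17, a shedding protease, was also among the higher genes, and Pycard, the adaptor that joins sensors to caspase-1, was lower, at 3529 and 593. On Day 0, 2 of the 10 compared were higher, Adam17 among them, and Pycard alone was lower, at 1026 and 360, beside 13.5% and 16.1% over all genes.

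**Figure D4:**
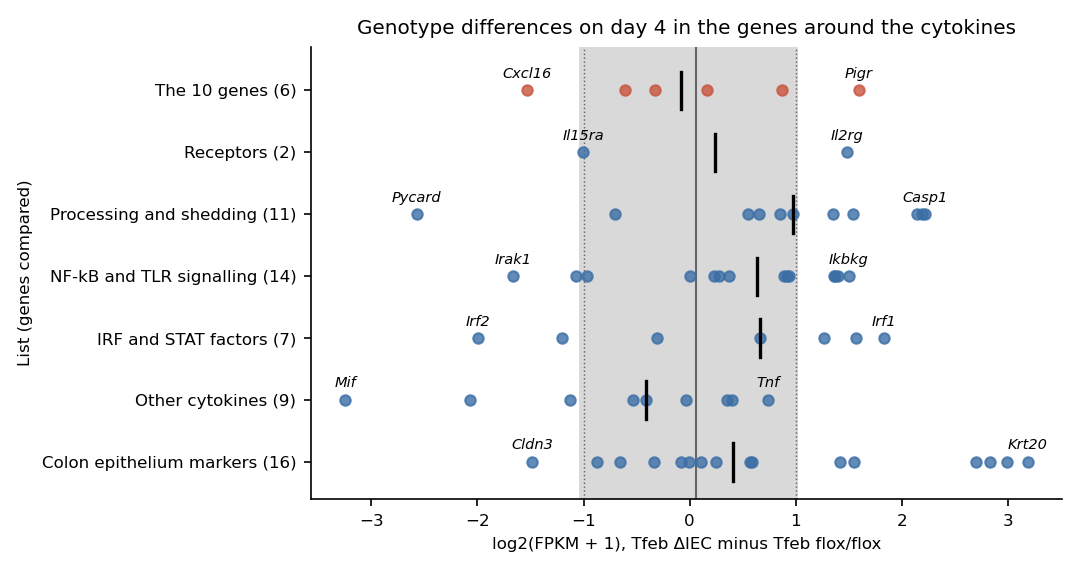
Difference in log2(FPKM + 1) on Day 4, Tfeb ΔIEC minus Tfeb flox/flox (horizontal axis), for each compared gene of 7 lists (rows, number compared in parentheses), with the 10 genes in red. Black bars are list medians, the grey band holds the middle 50% of all genes, and dotted lines mark 2-fold. The processing genes have the highest median, 0.98, and Mif the lowest value, -3.25.

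Of 21 genes of NF-kB and Toll-like receptor signalling, which induces Ccl20 and Pigr in epithelium, 14 were compared on Day 4, 4 were higher and 2 were lower, with a median of 0.63, where 25.6% of all genes compared were higher and 26.1% lower. Ikbkg, the regulatory subunit of the kinase that frees NF-kB, was listed at 0 in controls and had 1.83 FPKM in Tfeb ΔIEC, and Nfkb1, which encodes an NF-kB subunit, had 0.178 and 2.10. Irak1, a kinase below the receptors, had 2.49 and 0.101 and was lower, and Tlr2 was listed at 0 and had 1.58. Most compared genes of this list are 1913 to 4486 nt long. In that range the Day 4 medians of all genes by length ran from 0.52 to 0.73. On Day 0, 4 of 16 compared were higher and 1 lower, with a median of 0.26, beside 13.5% and 16.1% over all genes.

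Of 7 interferon response factors, all compared on Day 4, 3 were higher and 2 lower, with a median of 0.66, beside 25.6% and 26.1% over all genes. Irf1, a factor that binds interferon-stimulated elements and is known for inducing Pigr and Il15, had 12.8 FPKM in controls and 47.9 in Tfeb ΔIEC. Irf7 had 15.2 and 37.9, and Irf9 had 0.393 and 3.13. Irf2, which competes with Irf1 for the same element, was lower, at 17.6 and 3.68. On Day 0, 0 of the 6 compared were past 2-fold in either direction, with a median of -0.24, beside 13.5% higher and 16.1% lower over all genes.

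Most other cytokine and chemokine genes of epithelium were not seen. Of 32, 9 were compared on Day 4, 0 were higher and 3 were lower, with a median of -0.41, beside 25.6% and 26.1% over all genes, and 20 were listed at 0 in controls and 19 in Tfeb ΔIEC. The lower genes were Mif, the macrophage migration inhibitory factor, with 213 FPKM in controls and 21.6 in Tfeb ΔIEC, Ccl5, a T cell chemokine, with 39.5 and 8.63, and Cxcl10, an interferon-induced chemokine, with 1.19 and a listing at 0. Both Mif (544 nt) and Ccl5 (532 nt) are short transcripts, a length class whose median over all genes was lower in Tfeb ΔIEC. Il6, Il1a, Il23a, Il10, Cxcl1, Cxcl5 and Ccl2 were listed at 0 in both genotypes on Days 0 and 4.

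Markers of the labelled cell type and of other cells were read beside these values. All 16 colon epithelium markers were compared on Day 4, with a summed FPKM of 55140 in controls and 51187 in Tfeb ΔIEC. Most of each sum came from Car1 (24745 and 26614) and Lgals4, so the sums say little about the other markers. Of the 16 markers, 6 were higher and 1 was lower, beside the same 25.6% and 26.1%. The largest differences were in Krt20 (101 and 931), Slc26a3 (33.3 and 271), Vil1 (30.6 and 224) and Cdh1 (24.5 and 164). Others were lower without reaching 2-fold, such as Lgals4 (16806 and 9196), Car4 (232 and 147) and Krt8 (1865 and 1481), and the tight junction gene Cldn3 was lower by more than 2-fold (1573 and 562). On Day 0, when Pigr was also the higher in Tfeb ΔIEC, 2 markers were higher, Cdh1 (38.5 and 109) and Muc2 (1034 and 2744), and 2 were lower, Aqp8 (198 and 30.1) and Car4 (269 and 91.9), beside 13.5% and 16.1% over all genes. The part of these markers in the values of Pigr was not tested. Fabp6, an ileal bile acid binding protein, had 24.0 and 2.65 on Day 4, and Slc5a1, a sodium and glucose transporter, had 2.76 and 13.8. They were the 1 lower and the 1 higher of 4 compared among 10 small intestine markers.

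Most leukocyte markers were low, and on Day 0 they differed in both directions. Of 4 genes of all leukocytes the summed FPKM was 14.7 in controls and 4.15 in Tfeb ΔIEC on Day 0, with Cd52 at 6.22 and listed at 0. Of the 3 T and NK cell markers compared on that day, Cd3g, of the T cell receptor complex, had 7.09 and 2.01, Gzma, a granzyme, had 3.89 and was listed at 0, and Klrd1, an NK cell receptor gene, went the other way, listed at 0 and with 2.66. The plasma cell gene Mzb1 had 1.87 and 0.599, beside the lower values of Igha and Jchain. Cd14, of macrophages, had 2.16 and 5.22, just short of 2-fold at 0.98, and Ly6g, of neutrophils, had 1.18 and 4.10 and was higher in Tfeb ΔIEC. Each was the only gene of its list compared on Day 0. In each genotype, 8 of 10 macrophage and dendritic cell rows and 5 of 6 neutrophil rows were listed at 0 on that day. The part of these markers in the Day 0 differences was not tested. On Day 4 the leukocyte sum was 17.2 and 14.2, with Ptprc, which encodes CD45, at 0.362 and 0.790. Of 10 macrophage and dendritic cell rows, 6 were listed at 0 in each genotype on Day 4, and the list sum was 4.77 and 11.03, with Cd14 at 1.46 and 9.11 and Lyz2, the other one compared, the other way, at 2.88 and 1.77. The 10 T and NK cell markers summed to 5.88 and 8.36, with Cd4 listed at 0 in both, and of the B and plasma cell list Sdc1 was higher, at 9.91 and 40.3, as was Xbp1, at 14.6 and 55.4. Epithelial cells also express Sdc1 and Xbp1, while Mzb1 and Pou2af1, plasma cell markers, were listed at 0 on Day 4. Of 6 neutrophil markers, Mpo, Elane, Csf3r and S100a9 were listed at 0 in both genotypes, S100a8 had 1.15 in Tfeb ΔIEC only, and Ly6g, at 160 and 99.0, stood apart from the rest of its list. Of 10 genes of stroma, vessels and muscle, 0 reached 1 FPKM on any day.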

How the data were processed

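RNA-seq libraries of colonic epithelial cells, freed from the tissue with EDTA, were made by a SmartSeq2 variant from 2 animals of each genotype and day. Per the labels, reads were mapped to mm10 with TopHat2 2.0.14 and compared with Cuffdiff 2.1.1. The authors deposited 3 tables, 1 per day, each with 1 FPKM value per gene and genotype made from both animals; the annotation release is not given in the sources used here. The tables also hold the authors' own fold changes, test statistics, p-values and q-values, which were not used. FPKM values of 2 days come from separate normalizations.

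Rows were joined by Ensembl identifier. Differences were taken in log2(FPKM + 1), with a pseudocount of 1 FPKM, among genes with at least 1 FPKM in either value, and a gene was counted past 2-fold. No test was possible on 1 value per group. Lengths and positions come from GENCODE M21 on the same assembly (47218 of 47632 genes matched), promoters from RefSeq (GRCm38.p6). The running median used the 201 genes nearest in length. Members and lists were chosen with earlier results of these data known. Named are all members, Tfeb, up to 4 genes per list and day with the largest differences, and the 3 most like genes of each member with at least 5 FPKM; other list genes were named after their values were seen. The results of some genes that fall under this rule are not reported here. Protein features were not analysed here. Python 3.11.15, numpy 2.4.6, pandas 2.3.3 and matplotlib 3.10.9 were used, and the computation was tested on simulated data.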

Additional observations from a re-analysis of the deposited data

How the results depend on the processing

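No paired analysis was possible because the tables hold 1 pooled value per genotype and day, and for the same reason leaving out each animal in turn was not run. The alternatives moved the small counts of members past 2-fold as follows. A threshold of 4-fold left 0 higher and 0 lower on every day, where 2.09% to 7.46% of all genes were higher and 3.35% to 10.3% lower. A pseudocount of 5 FPKM left 0 higher on Day 0, beside 2.51% of all genes, and 0 lower on Days 4 and 11, beside 13.6% on each. A pseudocount of 0.1 gave 2 of 6 higher on Days 4 and 11, beside 32.6% and 33.4%. A filter at 5 FPKM left 1 of 3 higher on Day 0, beside 11.4%, and 0 of 3 lower on Days 4 and 11, beside 34.8% and 34.6%. Division by the FPKM sum gave 2 of 6 higher on Days 4 and 11, beside 40.5% and 41.0%. Subtraction of the running median over length left 1 of 5 higher on Day 0, beside 11.6%. With the longest transcript of each gene, an alternative chosen after the data were seen, 0 were higher on all 3 days, beside 11.5%, 20.5% and 20.3%. Between Day 0 and Day 4, division by the sum gave 2 higher and 2 lower in Tfeb flox/flox (Pigr at -1.50 and Ccl28 at -1.20) and 2 higher and 0 lower in Tfeb ΔIEC, where centring on the median also gave 2 and 0. The other 37 values of these counts stayed within 1.5 times, but not always with the same gene: with the running median over length the 1 higher member was Cx3cl1 (1.76 on Day 4) and not Pigr (0.91 on Day 4 and 0.97 on Day 11). Cxcl16 was lower on Day 4 under each alternative that compared it, at -2.75 to -0.56, and short of 2-fold with a pseudocount of 5 FPKM. Counts of 0 to 4 members, few fragments and the lack of values per animal limit what these comparisons can show.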
